A study of Mus musculus with 8 samples.

Results

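Hematopoietic stem cells are recognised by a small set of surface proteins and kept in their state by a few transcription regulators. The set described here holds 9 genes of that kind among the 24015 genes counted, chosen by name: the surface proteins Procr, Cd34, Ly6a, Cd27, Cd93 and Cd47, and the regulators Mecom, Hlf and Meis1. In the mouse aorta-gonad-mesonephros region (AGM) stem cells arise from the endothelium of the arteries, first as clusters of round cells attached to the vessel wall. The vessel wall and the clusters therefore share several of these surface proteins, and a gene that marks a stem cell in the adult can be an ordinary endothelial gene in the embryo.

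RNA was sequenced from AGM joined with the vitelline and umbilical arteries (AGM+VU) of E11.5 mouse embryos, from wild type and from Sl/Sl embryos on a CD45.2 C57BL/6 background. Sl/Sl embryos lack Kitl, the ligand of the receptor Kit, because a deletion takes away the Steel locus in every cell, so that the loss is not limited to the vessel wall and takes along whatever else lies in the deleted interval. All cells were sorted as Ter119- VE-Cadherin+, the cluster cells in addition as Kit+ and the endothelial cells as Kit- CD41- CD45-. Each of the 4 groups, clusters and endothelium of either genotype, had 2 samples of 100 cells. Embryos were pooled by genotype, 1 to 4 at a time, and the number behind each sample is not given. Differences between single embryos can therefore not be read from these samples. In such bulk samples fewer cells of a type and less RNA per cell cannot be told apart.

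The 8 libraries held between 8933236 and 13428214 counts on genes, with 12844 to 14309 genes detected in each. Counts of Kitl were 1250 and 923 in the endothelium of wild type embryos, 6 and 2 in that of Sl/Sl embryos, 110 and 0 in the clusters of the former and 1 and 3 in those of the latter, so that the second wild type cluster library cannot be told from an Sl/Sl library by this gene. Levels below are given as CPM, counts per 1000000 of the library total after scaling by trimmed mean of M values (TMM). Of the cell type markers, 16 hematopoietic genes summed to between 1841 and 3515 CPM in the clusters and to between 366.5 and 411.1 CPM in the endothelium, and Ptprc, which encodes CD45, lay between 106 and 304 CPM in the clusters and between 0.606 and 1.27 CPM in the endothelium. The 17 endothelial genes summed to between 506.1 and 3716 CPM in the clusters and to between 8480 and 9491 CPM in the endothelium.

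All 9 genes were found in the table and all 9 had enough counts to be tested, as did 13908 genes in all. In the mm9 build used for the counts, Procr lies at chr2:155576953-155581214 (plus strand, 4 exons listed), Cd34 at chr1:196765015-196787486 (plus, 8 exons), Ly6a at chr15:74825307-74828461 (minus, 4 exons), Cd27 at chr6:125182640-125187045 (minus, 6 exons), Cd93 at chr2:148262387-148269271 (minus, 2 exons), Cd47 at chr16:49855767-49911796 (plus, 10 exons), Mecom at chr3:29850218-30408409 (minus, 18 exons), Hlf at chr11:90197849-90252231 (minus, 4 exons) and Meis1 at chr11:18780431-18918972 (minus, 13 exons). The counts cover the listed exons. The exons of Cd34 share 148 bases with those of Gm16897 and those of Cd27 share 11 bases with Mir8113, while no other gene's exons overlapped the remaining 7. Ly6a belongs to a family of related genes, and whether reads were split among them was not tested. The counts of Mecom do not separate its isoforms.

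The 250 bases before the first listed exon were read from the NCBIM37 assembly, the same build. They are printed for 4 of the 7 genes that differed between the cell types at an adjusted p under 0.1 (below). These 4 are Cd34 and Cd93, which were higher in endothelium, and Hlf and Meis1, which were higher in clusters. Each is printed 5′ to 3′ on the strand of its gene. Capitals mark matches, on either strand, to 6 short motifs: GATAA for zinc finger factors of the Gata family, TGTGGT for Runx proteins, GGAAGT for proteins of the ETS family, TGACAG for Meis proteins, CAGCTG as an E-box of the basic helix-loop-helix family, and TTATGTAA for Hlf and its relatives.
Cd34, chr1:196764765-196765014, plus strand: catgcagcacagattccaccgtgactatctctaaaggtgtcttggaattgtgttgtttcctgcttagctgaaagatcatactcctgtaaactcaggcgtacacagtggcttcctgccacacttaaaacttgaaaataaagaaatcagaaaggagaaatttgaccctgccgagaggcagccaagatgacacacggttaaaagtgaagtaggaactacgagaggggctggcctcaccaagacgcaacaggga
Cd93, chr2:148269272-148269521, minus strand: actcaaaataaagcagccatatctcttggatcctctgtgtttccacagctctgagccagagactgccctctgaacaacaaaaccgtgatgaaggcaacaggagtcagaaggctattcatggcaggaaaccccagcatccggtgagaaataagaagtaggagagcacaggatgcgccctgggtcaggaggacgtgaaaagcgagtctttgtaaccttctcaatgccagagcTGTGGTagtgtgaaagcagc
Hlf, chr11:90252232-90252481, minus strand: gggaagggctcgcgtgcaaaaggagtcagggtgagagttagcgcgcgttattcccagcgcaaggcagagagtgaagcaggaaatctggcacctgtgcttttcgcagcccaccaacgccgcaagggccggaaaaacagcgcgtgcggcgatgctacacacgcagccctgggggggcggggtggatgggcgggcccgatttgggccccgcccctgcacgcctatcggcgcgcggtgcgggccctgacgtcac
Meis1, chr11:18918973-18919222, minus strand: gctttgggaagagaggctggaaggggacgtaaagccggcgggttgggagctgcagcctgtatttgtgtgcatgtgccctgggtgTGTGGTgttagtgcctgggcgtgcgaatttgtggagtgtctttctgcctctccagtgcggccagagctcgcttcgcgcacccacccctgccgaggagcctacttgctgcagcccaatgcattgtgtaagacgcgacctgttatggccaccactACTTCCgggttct
The window of Cd93 holds 1 match to the Runx motif, and that of Meis1 holds 1 to the Runx motif and 1 to the ETS motif, the latter read on the other strand. The windows of Cd34 and Hlf hold no match to any of the 6 motifs, which says only that these letters are not in these windows. Of the other 5 genes, Procr has 1 match to the E-box. Among 23896 windows of the same length before annotated genes, 20.8% held the Gata motif, 12.3% the Runx motif, 20.3% the ETS motif, 15.0% the Meis motif, 12.3% the E-box and 0.766% the Hlf motif, and no motif of the 6 is contained in another. The share of G and C was 46.4% in the window of Cd34, 67.2% in that of Hlf and 59.6% in that of Meis1, and the median over all windows was 55.2%.

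To place the genes against each other within a group, counts were divided by the listed exon length in kilobases and by the library total as in CPM but without scaling (RPKM). In wild type clusters the level was highest for Cd47, at 363 ± 48.2 RPKM (SD, n = 2), followed by Cd34 at 202 ± 30.2, Meis1 at 57.5 ± 5.21 and Cd93 at 49.9 ± 4.62. Below these came Cd27 (41.5 ± 24.1), Procr (29.9 ± 26.0), Mecom (13.1 ± 12.3), Ly6a (11.9 ± 12.9) and Hlf (10.5 ± 10.2). From Cd93 downwards each gene's libraries overlapped those of the next in this order, so that neighbours from the fourth place on do not differ beyond their spread. In Sl/Sl clusters Cd47 (211 ± 26.4 RPKM) and Cd34 (194 ± 77.5) again led, here with overlapping libraries, and Procr (69.8 ± 63.2) and Cd93 (69.3 ± 16.9) stood above Meis1 (33.8 ± 1.24). The lowest 4 were Cd27 (22.9 ± 1.38), Mecom (20.2 ± 14.3), Ly6a (9.53 ± 2.18) and Hlf (8.03 ± 1.54 RPKM), each overlapping its neighbour.

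The endothelium had another order. Cd34 led in wild type endothelium at 411 ± 4.73 RPKM, ahead of Cd93 (203 ± 12.01), Procr (88.3 ± 1.91), Cd47 (58.2 ± 31.0) and Mecom (37.7 ± 4.53). Meis1 was at 7.53 ± 0.27 RPKM, Cd27 at 2.72 ± 3.85, Hlf at 0.093 ± 0.035 and Ly6a at 0.039 ± 0.055. Only the neighbours Cd47 and Mecom, Cd27 and Hlf, and Hlf and Ly6a overlapped there. Sl/Sl endothelium held Cd34 (401 ± 19.3 RPKM), Cd93 (228 ± 30.7), Cd47 (57.9 ± 4.25), Procr (48.9 ± 3.40), Mecom (31.3 ± 4.35), Meis1 (8.42 ± 5.25), Ly6a (7.59 ± 4.09), Cd27 (0.16 ± 0.23) and Hlf (0.030 ± 0.042), with overlap between Meis1 and Ly6a and between Cd27 and Hlf.

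**Figure D1:**
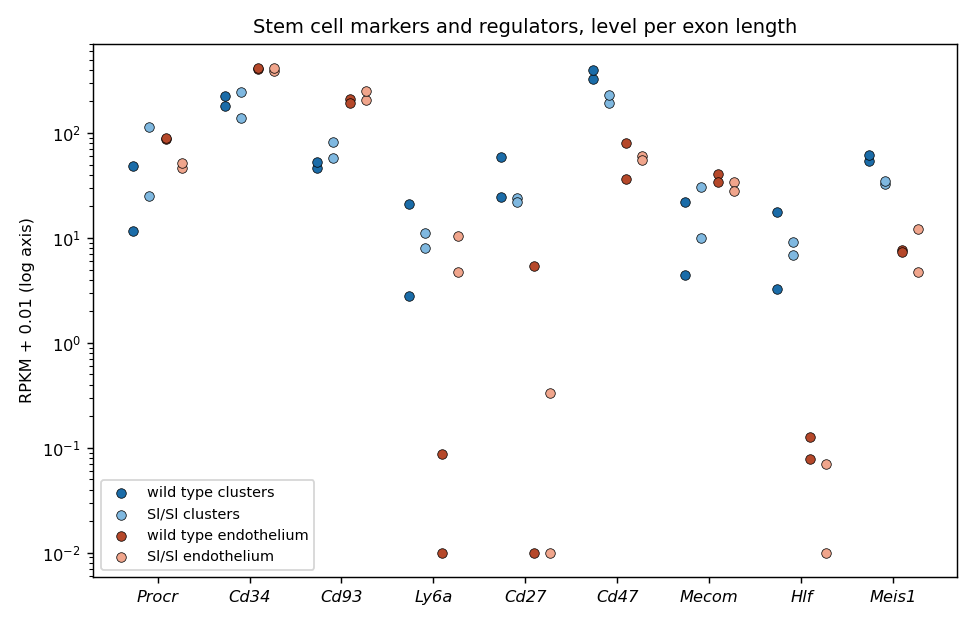
Level of each of the 9 genes per exon length in each library (RPKM plus 0.01 on a log axis), with 1 point per library and 4 colours for the 4 groups. Cd34 and Cd93 lead in endothelium, Cd47 and Cd34 lead in clusters, and Hlf lies near the lower end of the axis in all 4 endothelial libraries.

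The first comparison asked which of these genes distinguish the vessel wall from the clusters that arise from it. Endothelium and clusters differed in 7 of the 9 genes at an adjusted p under 0.1 by the quasi-likelihood test of edgeR, adjusted over all genes by the Benjamini-Hochberg method, with the genotypes averaged. Cd34 and Cd93 were higher in endothelium, and Cd47, Meis1, Hlf, Cd27 and Ly6a were lower. Among all 13908 genes tested 16.6% passed, 8.48% as higher and 8.12% as lower in endothelium. In 7 of the 9 genes, all but Procr and Ly6a, the 4 libraries of one cell type did not overlap the 4 of the other, which held for 19.7% of all genes tested.

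**Figure D2:**
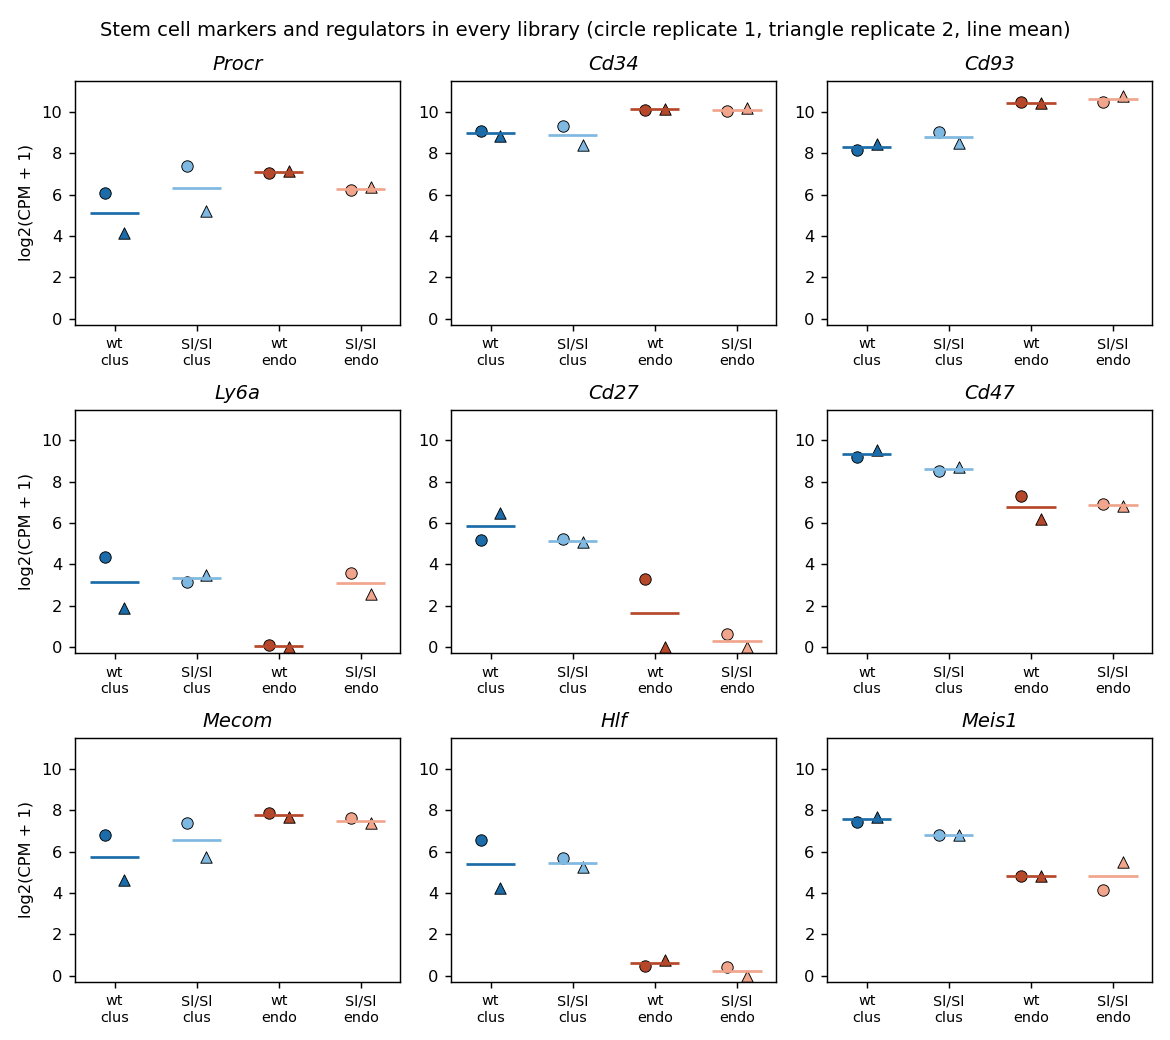
Level of each gene in the 8 libraries as log2(CPM + 1), with circles for replicate 1, triangles for replicate 2 and a line at the mean of each group. Cd34 and Cd93 stand higher in all 4 endothelial libraries, Cd47, Meis1, Hlf and Cd27 stand lower in them, and the 2 cluster replicates of a genotype lie far apart for Procr and Mecom.

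Of the surface proteins, Cd93, a C-type lectin-like receptor of endothelial and progenitor cells, had 287 and 344 CPM in the 2 wild type cluster libraries, 530 and 357 CPM in the Sl/Sl clusters, 1431 and 1367 CPM in wild type endothelium, and 1426 and 1763 CPM in the Sl/Sl one. Every endothelial library was above every cluster library. The log2 fold change, endothelium over clusters, was 2.00 ± 0.17 (SE), with an adjusted p of 0.000236 in edgeR's quasi-likelihood test. It was 2.15 within wild type and 1.85 within Sl/Sl (adjusted p 0.00195 and 0.00808, edgeR).

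Cd34, a sialomucin of endothelial and blood progenitor cells, showed the same direction with a smaller difference. Its level was 543 and 462 CPM in wild type clusters, 640 and 341 CPM in Sl/Sl clusters, 1088 and 1149 CPM in wild type endothelium, and 1058 and 1157 CPM in the Sl/Sl one. The endothelial libraries lay close together, and the cluster libraries were spread over a wider range below them. On the log2 scale the fold change was 1.16 ± 0.20 (SE; adjusted p 0.00680, edgeR), and it was 1.15 within wild type and 1.17 within Sl/Sl (adjusted p 0.0495 and 0.0871, edgeR).

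Cd47 encodes the ligand of Sirpa that shields a cell from uptake by phagocytes, and it also binds thrombospondins. It stood at 584 and 743 CPM in wild type clusters, at 363 and 413 CPM in Sl/Sl clusters, at 156 and 73.6 CPM in wild type endothelium, and at 121 and 112 CPM in the Sl/Sl one. All 4 cluster libraries were above all 4 endothelial ones, and endothelium fell below clusters by 2.13 ± 0.25 on the log2 scale (SE; adjusted p 0.00115, edgeR). Within wild type the log2 fold change was -2.53 and within Sl/Sl -1.73, each of which passed (adjusted p 0.00612 and 0.0465, edgeR).

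Cd27, a receptor of the tumour necrosis factor family whose ligand is Cd70, was counted 414 and 1158 times in the cluster libraries of wild type and 451 and 464 times in those of Sl/Sl embryos. The endothelial libraries held 110 and 0 counts for wild type but 6 and 0 for Sl/Sl, where a count of 0 allows up to 3. As CPM, clusters held between 32.4 and 90.1 and endothelium at most 8.74, that value being the first wild type endothelial library. Endothelium over clusters, the log2 fold change was -5.36 ± 1.30 (SE; adjusted p 0.0312, edgeR), and it was -9.69 without that library and -7.77 without the first Sl/Sl endothelial library. Within wild type it was -3.84 and within Sl/Sl -6.89, and neither passed (adjusted p 0.244 and 0.153, edgeR).

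Procr, the endothelial receptor for protein C and a marker of stem cells, had 67.3 and 17.0 CPM in wild type clusters, 169 and 35.4 CPM in Sl/Sl clusters, 133 and 143 CPM in wild type endothelium, and 72.8 and 82.0 CPM in the Sl/Sl one. The endothelial replicates nearly coincided within a genotype, whereas the highest value of all came from a cluster library, so that the cell types overlapped. The log2 fold change of 0.66 ± 0.52 (SE) did not pass (adjusted p 0.478, edgeR). It was 1.71 within wild type and -0.40 within Sl/Sl (adjusted p 0.255 and 0.868, edgeR). Without the first Sl/Sl cluster library it was 1.42 and passed (adjusted p 0.0965), and without any one of the other 7 libraries it did not.

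Ly6a encodes Sca-1, a lipid-anchored protein on stem cells and on some endothelium. It was low throughout, with 227 and 35 counts in wild type clusters, 96 and 149 in Sl/Sl clusters, 1 and 0 in wild type endothelium, and 125 and 42 in the Sl/Sl one. Wild type endothelium stood apart from the other 3 groups, which overlapped one another. The log2 fold change of -3.95 ± 1.18 (SE) passed in edgeR's quasi-likelihood test (adjusted p 0.0650). It was -7.71 within wild type and -0.20 within Sl/Sl (adjusted p 0.0658 and 0.977, edgeR). The call was lost without the first wild type cluster library (log2 fold change -2.94, adjusted p 0.236) and without either Sl/Sl cluster library, the second wild type endothelial library or either Sl/Sl endothelial library (adjusted p 0.115, 0.139, 0.148, 0.131 and 0.151), where the log2 fold change stayed between -4.32 and -3.58.

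Among the regulators, Hlf had the largest log2 fold change of the 9 genes with the genotypes averaged and all 8 libraries in the fit. Hlf is a transcription factor of the PAR bZIP family that is used as a mark of stem cells. It had 1077 and 232 counts in wild type clusters, 619 and 528 in Sl/Sl clusters, 5 and 7 in wild type endothelium, and 4 and 0 in the Sl/Sl one. Endothelial libraries thus held at most 7 counts against at least 232 in any cluster library. The log2 fold change was -7.20 ± 0.92 (SE; adjusted p 0.00183, edgeR), with -6.64 within wild type and -7.77 within Sl/Sl (adjusted p 0.0207 and 0.0277, edgeR).

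Meis1, a homeodomain protein that acts with Hox and Pbx proteins, was counted in all 8 libraries. Its level was 172 and 206 CPM in wild type clusters, 112 and 112 CPM in Sl/Sl clusters, 27.1 and 26.8 CPM in wild type endothelium, and 16.9 and 44.4 CPM in the Sl/Sl one. Every cluster library was above every endothelial one. Endothelium fell by 2.34 ± 0.33 on the log2 scale (SE; adjusted p 0.00285, edgeR), and the log2 fold change was -2.81 within wild type and -1.87 within Sl/Sl (adjusted p 0.0133 and 0.0962, edgeR).

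Mecom, which encodes the zinc finger protein Evi1 and its longer form, went the other way in its values. It had 111 and 23.7 CPM in wild type clusters, 164 and 51.9 CPM in Sl/Sl clusters, 229 and 201 CPM in wild type endothelium, and 197 and 165 CPM in the Sl/Sl one. The cell types did not overlap, but the lowest endothelial library (165 CPM) was hardly above the highest cluster library (164 CPM). The log2 fold change of 1.21 ± 0.49 (SE) did not pass in edgeR's quasi-likelihood test (adjusted p 0.151), and it did not pass within wild type (1.68, adjusted p 0.223) or within Sl/Sl (0.75, adjusted p 0.665). It passed in DESeq2 (adjusted p 0.0392) and in edgeR with no filter on low counts (adjusted p 0.000145). In the latter the log2 fold change was still 1.21, so that the adjusted p moved and the estimate did not. In edgeR the log2 fold change was 1.97 without the first wild type cluster library and 1.74 without the first Sl/Sl cluster library.

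Within wild type alone 6 of the 9 genes passed, against 8.24% of all genes tested, and within Sl/Sl alone 5 of 9 passed, against 2.83%. Cd34, Cd93, Cd47, Meis1 and Hlf passed in each. Both contrasts came from the fit of all 8 libraries, and each rests on the 4 of 1 genotype.

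**Figure D3:**
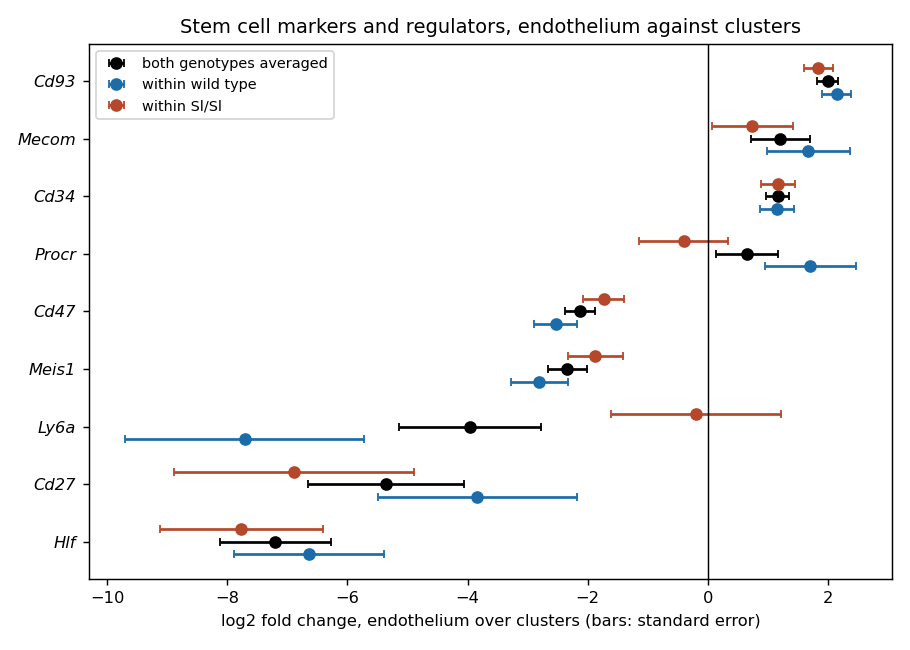
Log2 fold change of each gene, endothelium over clusters, with the genotypes averaged (black), within wild type (blue) and within Sl/Sl (red), and bars for the standard error. Cd93 and Cd34 lie right of 0 and Cd47, Meis1, Cd27 and Hlf left of 0 in all 3, while Procr lies on different sides in the 2 genotypes and Ly6a near 0 in Sl/Sl.

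The 2 libraries of a group differed widely for several of the 9 genes. The higher of the 2 wild type cluster libraries exceeded the lower by a factor of 3.97 in Procr, 4.70 in Mecom, 5.14 in Hlf and 7.19 in Ly6a, and the first library was the higher in each. Cd27 went the other way, with the second library 2.52 times higher. In Sl/Sl clusters the first library was higher by a factor of 4.78 in Procr, 3.16 in Mecom and 1.87 in Cd34, whereas Hlf (1.38) and Ly6a (1.32) were closer. The replicates in endothelium were within a factor of 1.24 of each other for Procr, Mecom, Cd34 and Cd93 in each genotype. They were farther apart there for Meis1 and Ly6a in Sl/Sl (2.63 and 2.19), for Cd47 in wild type (2.13), and for Cd27 in wild type, with 110 counts against 0.

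The endothelial markers, as a sum, took the order of Procr and Mecom over the cluster libraries. From highest to lowest the order of the cluster libraries was Sl/Sl first, wild type first, Sl/Sl second and wild type second for Procr, for Mecom and for the 17 endothelial markers, which summed to 3716, 1486, 928.7 and 506.1 CPM in that order. All 17 were above 3 counts in each of these libraries. Cdh5, which encodes VE-Cadherin, the protein all cells were sorted on, had 149, 218, 46.1 and 11.98 CPM in the same order. The 13 macrophage markers in the table took that order as a sum, with 888.7, 844.2, 438.5 and 287.1 CPM. Of these genes 13, 11, 12 and 11 were above 3 counts and 0, 1, 1 and 1 were at 0. By their median they did not take it, with 22.24, 11.81, 7.618 and 10.81 CPM. Cd34 and Cd93, which were higher in endothelium, did not take this order. In it Cd34 had 640, 543, 341 and 462 CPM and Cd93 had 530, 287, 357 and 344 CPM. The part of the endothelial and macrophage markers in the values of Procr and Mecom was not tested.

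Other lists ran differently over the cluster libraries. The 16 hematopoietic markers were highest in the second wild type library (3515 CPM) and lowest in the first Sl/Sl library (1841 CPM), and Cd47, Meis1 and Cd27 also had their highest level in that wild type library. The 7 megakaryocyte markers summed to 1087 and 1637 CPM in the second wild type and second Sl/Sl libraries against 60.6 and 207.8 CPM in the first ones. Mesenchymal markers reached 5283 CPM in the second Sl/Sl cluster library, against between 401.4 and 1159 CPM in the other 3. Neutrophil granule genes summed to between 269.2 and 940.7 CPM in the clusters and to at most 33.62 CPM in the endothelium, erythroid genes to at most 266.3 CPM in any library, lymphoid genes to at most 222.5, epithelial genes to at most 170.1 and germ cell genes to at most 108.4 CPM. Their part in the results of the 9 genes was not tested either.

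**Figure D4:**
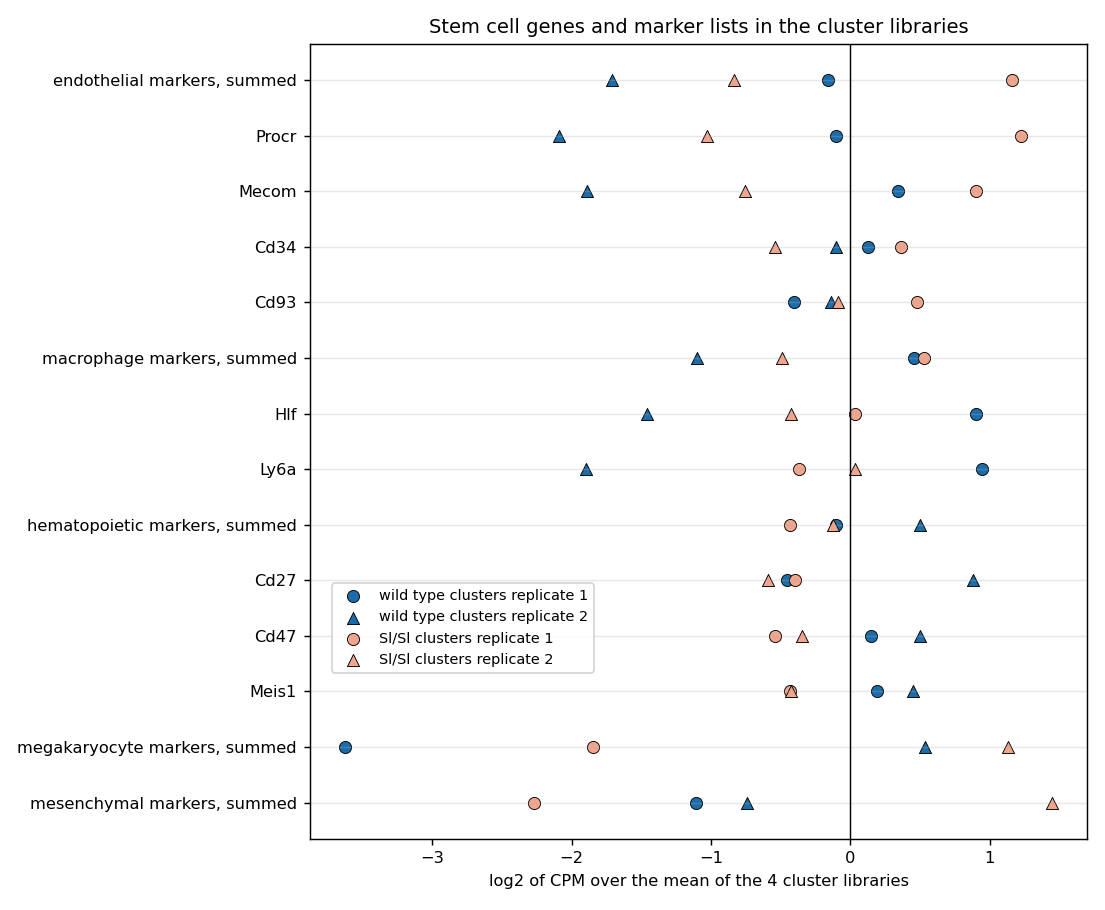
The 4 cluster libraries placed by log2 of each CPM over the mean of the 4, for the 9 genes and for 5 summed marker lists, with circles for replicate 1 and triangles for replicate 2, blue for wild type and pink for Sl/Sl. Procr and Mecom show the order of the endothelial markers, with the first Sl/Sl library highest and the second wild type library lowest, while Cd47, Meis1 and Cd27 have the second wild type library highest.

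The second comparison asked what the loss of Kitl in the embryo did to the cluster cells that carry its receptor. None of the 9 genes passed between Sl/Sl and wild type clusters in edgeR's quasi-likelihood test (adjusted p 1 for each). Of all genes tested 0% passed: 0 genes at an adjusted p under 0.1, with 587 at an unadjusted p under 0.05, 253 genes passing in edgeR with no filter on low counts and 155 in DESeq2, of which 0 were among the 9. In 3 genes, Cd47, Meis1 and Cd93, the libraries of the genotypes did not overlap, against 32.7% of all genes tested.

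Cd47 had 584 and 743 CPM in wild type and 363 and 413 CPM in Sl/Sl clusters, a log2 fold change of -0.78 ± 0.34 (SE; unadjusted p 0.0469 and adjusted p 1, edgeR). Meis1 had 172 and 206 CPM in wild type and 112 in each Sl/Sl library, which gave -0.75 ± 0.44. Cd93 had 287 and 344 CPM in wild type and 530 and 357 CPM in Sl/Sl clusters, a log2 fold change of 0.49 ± 0.23 (unadjusted p 0.0594, edgeR). None of these 3 differences passed the adjustment.

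For Procr, Mecom, Hlf, Ly6a and Cd34 the direction hung on single libraries. Procr had a log2 fold change of 1.28 ± 0.75, which was -0.25 without the first Sl/Sl cluster library and 2.59 without the first wild type one. Mecom had 0.68 ± 0.68, with -0.37 and 2.19 in the same 2 cases. Hlf (-0.34 ± 0.96) and Ly6a (-0.28 ± 1.42) became 1.28 and 1.75 without the first wild type cluster library. Cd34 was at -0.03 ± 0.27, with a range from -0.56 to 0.35 as single libraries were left out. Cd27 had -0.86 ± 1.49, and -0.046 without the second wild type cluster library.

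The third comparison did the same for the endothelium, the cell type with the higher counts of Kitl in wild type. None of the 9 genes passed in edgeR's quasi-likelihood test (adjusted p 1 for each). Again 0% of all genes tested passed in edgeR, with 0 genes at an adjusted p under 0.1 and 579 at an unadjusted p under 0.05, while DESeq2 called 119 genes, 1 of them Ly6a (adjusted p 0.0405), and edgeR with no filter on low counts called 65, 1 of them Cd27 (adjusted p 0.0585). The genotypes did not overlap in Procr, Ly6a, Mecom and Hlf, 4 of the 9 genes, against 28.5% of all genes tested.

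Ly6a stood out by size. Its 1 and 0 counts in wild type endothelium faced 125 and 42 counts in Sl/Sl endothelium, where a count of 0 allows up to 3. The ratio of the summed counts per total, Sl/Sl over wild type, was 187, with a 95% exact interval from 33.1 to 7430. That interval treats reads as independent and leaves out the spread between samples, so that it can be too narrow. The fitted log2 fold change was 7.23 ± 1.96 (SE; unadjusted p 0.00473 and adjusted p 1, edgeR), and it stayed between 6.48 and 9.53 as single libraries were left out. In the clusters the same gene was present in both genotypes, from 35 to 227 counts.

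Procr was at 133 and 143 CPM in wild type and 72.8 and 82.0 CPM in Sl/Sl endothelium, a log2 fold change of -0.83 ± 0.74. That standard error draws on all 8 libraries. Replicates of Procr differed by factors of 3.97 and 4.78 in clusters, against 1.07 and 1.13 in endothelium. Mecom was at 229 and 201 CPM against 197 and 165 CPM, which gave -0.25 ± 0.68. Hlf did not overlap only because its counts of 5 and 7 in wild type faced 4 and 0 in Sl/Sl. Cd27 (-3.91 ± 1.82) rested on the 110 counts of the first wild type library, without which the log2 fold change was 4.76.

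The remaining 4 genes lay near 0 in this comparison. Cd34, the highest of the set in endothelium by RPKM though not by CPM, had a log2 fold change of -0.01 ± 0.27. That of Cd47 was 0.02 ± 0.34, that of Cd93 0.19 ± 0.23 and that of Meis1 0.18 ± 0.45. These standard errors rest on a spread estimated over all 8 libraries, clusters included, and not on the endothelium alone. The widest factor between replicates was 1.87 in clusters against 1.09 in endothelium for Cd34, and 1.48 against 1.24 for Cd93. For Cd47 it was 1.27 against 2.13, and for Meis1 1.20 against 2.63. On the shared spread there is room for moderate differences in either direction.

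**Figure D5:**
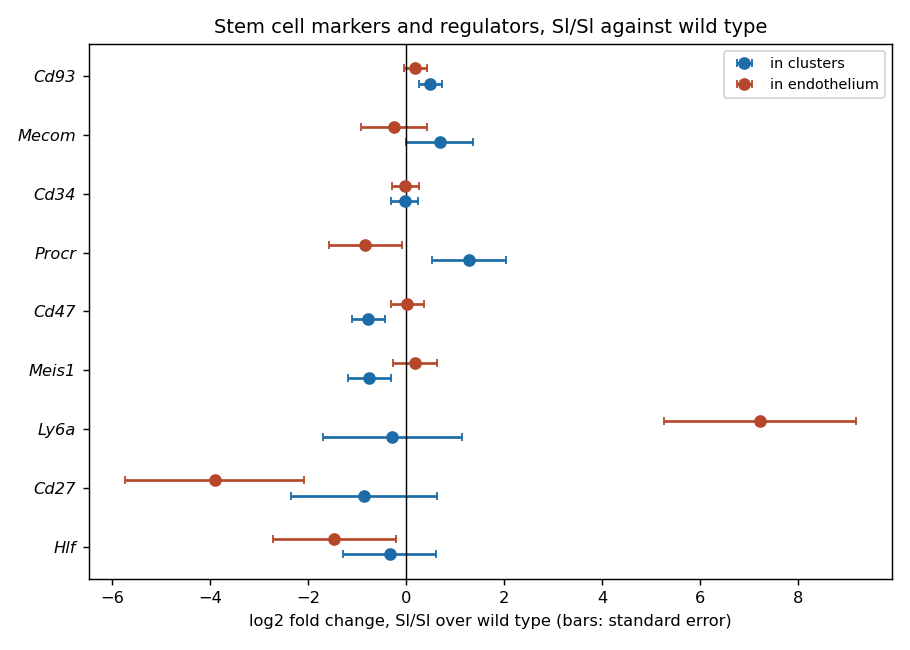
Log2 fold change of each gene, Sl/Sl over wild type, in clusters (blue) and in endothelium (red), with bars for the standard error. Cd34 lies next to 0 in both cell types, Ly6a in endothelium lies at 7.23 and Procr lies on opposite sides of 0 in the 2 cell types.

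Whether the genotypes differed more in one cell type than in the other was tested as the difference of the 2 log2 fold changes, clusters minus endothelium. None of the 9 genes passed, nor did any gene tested (0%): 0 genes at an adjusted p under 0.1 in edgeR's quasi-likelihood test, with 735 at an unadjusted p under 0.05, 121 called by DESeq2 and 179 by edgeR with no filter on low counts. The last of these included Procr (adjusted p 0.0742), whose difference was 2.11 ± 1.05 (SE; unadjusted p 0.0748 and adjusted p 0.906 in edgeR with the filter) and 0.59 without the first Sl/Sl cluster library. For Ly6a the difference was -7.51 ± 2.34 (unadjusted p 0.0104 and adjusted p 0.902, edgeR). The same test bears on the comparison of the cell types, so that the difference of Ly6a between its wild type and Sl/Sl values did not pass. The comparisons of genotypes and of cell types share libraries and are not independent of each other.

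Beside the 9 genes, 148 genes of related function were listed: binding partners and relatives of each, other stem cell surface markers and other stem cell regulators. Of these 130 were tested, and 56 passed between endothelium and clusters, 30 higher and 26 lower in endothelium, where 16.6% of all genes tested passed. Their median log2 fold change was -0.018, against -0.067 over all genes tested. Some of the listed genes also belong to the cell type markers given above. None passed between genotypes in clusters, between genotypes in endothelium, or in the difference of these effects in edgeR.

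Other surface markers passed most often, with 13 higher and 7 lower in endothelium among 25 tested and a median log2 fold change of 1.03. This list includes Kit and Ptprc, whose proteins set the cell types apart in the sort, so that their part in the count is no finding. Itga2b, which encodes CD41, was also used to separate them and did not pass, and Cdh5 encodes the protein on which both cell types were sorted. Cdh5, Tek, Emcn, Esam and Robo4, which passed as higher, are also among the 17 endothelial markers above. How far such markers set the count and the median of this list was not tested. Other regulators were at 7 higher and 12 lower of 45 tested, with a median of -0.076. Some of them are cell type markers too, among them Runx1, Myb and Spi1 of the 16 hematopoietic markers and Sox17 of the endothelial ones. Lower in endothelium were Runx1 (log2 fold change -6.04 ± 0.30, adjusted p 5.97e-05), the master regulator of the step from endothelium to blood, Myb (-5.69 ± 0.35, adjusted p 6.44e-05), Gfi1b (-5.09 ± 0.58, adjusted p 0.00103) and Spi1 (-4.71 ± 0.58, adjusted p 0.00154; all edgeR). Of the surface markers Flt3, Cd48 and Gpr56 were lower in endothelium, with log2 fold changes of -7.72 ± 0.86, -7.004 ± 0.89 and -3.72 ± 0.50 (adjusted p 0.000871, 0.00179 and 0.00226, edgeR), as were the sort genes Ptprc (-7.79 ± 0.49) and Kit (-1.90 ± 0.21).

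Of the partners and relatives, 11 were higher and 8 lower in endothelium among 63 tested. For Procr 3 of 5 were higher, among them Thbd, thrombomodulin, with which Procr acts in the activation of protein C (1.59 ± 0.23, adjusted p 0.00325, edgeR). For Cd93 3 of 7 were higher, and for Cd34 1 was higher and 2 were lower of 4. For Cd47 4 of 6 were lower. Among the relatives of Ly6a 2 were higher and 1 was lower of 5: Gpihbp1, which holds lipoprotein lipase on capillaries, was higher (5.05 ± 0.74, adjusted p 0.00353) and Ly6e was lower (-4.24 ± 0.51, adjusted p 0.00129, edgeR). For Cd27 1 of 8 was higher, and Cd70, the ligand, was below the filter. For Mecom 1 was higher and 1 lower of 9, and none of the 8 tested for Hlf and of the 12 tested for Meis1 passed.

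Between genotypes the 5 listed genes with the smallest p in clusters were Ndn (log2 fold change 1.07), Lin28b (-1.68), Gpihbp1 (2.96), Esam (2.18) and Ly6c2, the last with 0 counts in both wild type libraries and 26 and 213 for Sl/Sl, so that it was at least 73.1-fold higher against a floor of 3 counts over the group. In endothelium they included Cd248 (82 and 101 counts for wild type against 0 and 0 for Sl/Sl, which is lower by at least 54.5-fold with the same floor), Myb (-1.39), Spi1 (-2.25) and Cdkn1a (2.92). For the difference between the cell types they were Spi1, Cd248, Cdkn1a, Ndn and Gata2. None of them passed (adjusted p from 0.902 to 1, edgeR).

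As a description of the patterns over the 8 libraries, the 3 tested genes with the largest Pearson correlation of log2 CPM were found for each of the 9, where the libraries share 2 cell types and so set much of the value. They were Mlf2, Slc43a1 and Mospd2 for Procr (r from 0.948 to 0.979), Hecw2, Cmtm8 and 2010107E04Rik for Cd34 (0.991 to 0.995), Zfp612, Cyp4v3 and Ifit2 for Ly6a (0.976 to 0.98) and Nrros, Plac8 and Smim6 for Cd27 (0.984 to 0.996). N4bp3, Esm1 and Snrk came nearest to Cd93 (0.99 to 0.992), Pycard, Cxcr2 and Il4 to Cd47 (0.987 to 0.989), and Smagp, Sox18 and Stab1 to Mecom (0.985 to 0.996). For Hlf they were Myb, Csf1r and Dkkl1 (0.982 to 0.987), and for Meis1 Celf2, Glipr1 and Gmnn (0.983 to 0.988).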

How the data were processed

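RNA of 100 sorted cells per sample was amplified with SMARTSEQ2, which carries no molecular identifiers, and sequenced as 75 bp paired-end reads. The authors aligned the reads to mm9 with STAR 2.4.2a, merged the lanes and made the deposited table of raw counts per gene with featureCounts (Subread 1.4.5). The annotation, strand setting and treatment of multiply mapped reads are not given in the sources used here, and DESeq2 1.12.4 was the authors' test, at an FDR of 0.1. With it the paper reports genes that differ between the genotypes in clusters and in endothelium, where edgeR called 0 here. Without molecular identifiers, reads are not independent molecules. Intervals, floors and the fold bounds drawn from them treat reads as independent. They can therefore understate the counting error, and they leave out the spread between samples.

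The counts were fitted in R 4.3.3 with edgeR 4.0.16 (glmQLFit and glmQLFTest) with TMM scaling and filterByExpr over the 4 groups, which left 13908 genes. All 8 libraries entered 1 fit with no covariate, P values were adjusted by Benjamini-Hochberg over all genes tested, and genes were called at an adjusted p under 0.1. The SE is the log2 fold change divided by the square root of F. The alternatives were DESeq2 1.42.0, RLE scaling, no filter, a filter of at least 1 CPM in at least 4 libraries, and a replicate block. Others were fits within a cell type, a threshold of 0.05, and leaving out each library in turn. Contrasts within a genotype were taken from the fit of all 8 libraries. The fit was first run on simulated counts with 200 genes changed per comparison, as a check of the code. Its outcome is not given here and is not used for any result above. RPKM was computed with the deposited exon lengths and plain totals.

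Samples were grouped by the labels. The 2 samples of a group are said to be biological replicates from 2 sorting experiments, but which sample came from which is not given in the sources used here. P-values set a difference against the spread between these samples, which was estimated over all 8 libraries and moderated across genes. The 2 libraries of a group did not hold identical values. The 9 genes and the lists of related and marker genes were chosen with earlier results of these data known. Of the listed genes, those called are named, at most the 12 with the smallest p in a comparison, or the 5 with the smallest p where fewer than 5 were called, and for each of the 9 genes the 3 with the largest correlation of log2 CPM (prior count 2). The result of 1 gene that this rule names is not reported here.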

Additional observations from a re-analysis of the deposited data

How the results depend on the processing

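With 2 libraries a group, differences near the standard errors given were not detectable. Between endothelium and clusters 2310 genes passed, with 1488 at an adjusted p under 0.05, 1146 within wild type and 393 within Sl/Sl, and from 1563 to 2087 as single libraries were left out. Of the 9 genes 7 passed, with 6 to 8 as single libraries were left out, 8 in DESeq2, with no filter and with the replicate block, and 6 at 0.05. Procr turned to -0.40 within Sl/Sl. The replicate block moved the genes called between the cell types to 2126, added Mecom (log2 fold change 1.51, adjusted p 0.0323 in edgeR), called 8 genes between genotypes in clusters and turned Ly6a there to 0.37. Deviations of same-numbered libraries correlated between groups from -0.111 to 0.157, with the highest value between the cluster groups, and whether same-numbered libraries share a sorting experiment is not given in the sources used here. In clusters 0 genes passed between genotypes, with 155 in DESeq2, 253 with no filter and from 6 to 76 without single libraries (76 without the first wild type cluster library). In the latter the log2 fold changes ranged from -0.25 to 2.59 for Procr, -0.56 to 0.35 for Cd34, -1.10 to 1.75 for Ly6a, -1.09 to 1.28 for Hlf and -0.37 to 2.19 for Mecom. In endothelium 0 genes passed, with 119 in DESeq2 (1 of the 9), 65 with no filter (1 of the 9), 2 in the 4 endothelial libraries alone and 0 to 1 without single libraries, and the ranges were -8.67 to 4.76 for Cd27, -0.089 to 0.053 for Cd34, -0.41 to 0.67 for Cd47 and -0.68 to 0.73 for Meis1. For the difference of the genotype effects 0 genes passed, with 121 in DESeq2, 179 with no filter (1 of the 9) and 0 to 27 without single libraries, and the ranges were -0.54 to 0.37 for Cd34, -0.0071 to 0.56 for Cd93, -0.12 to 2.44 for Mecom and -5.62 to 7.82 for Cd27. The cause of these shifts was not tested. RLE scaling turned no direction and changed no call of the 9 genes. The calls that only the fit with no filter added, of Cd27 in endothelium and of Procr in the difference, came with log2 fold changes of -3.91 and 2.14. With the filter these were -3.91 and 2.11, so that the adjusted p moved far more than the estimates.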
